A study of Homo sapiens with 8 samples.

Results

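Chromatin accessibility was examined at 9 genes that govern fetal hemoglobin in red cell precursors apart from BCL11A: ZBTB7A, NFIA, NFIX, LIN28B, HIC2, ATF4, EIF2AK1, MBD2 and SPOP. A peak was assigned to a gene when its summit lay in the gene body or within 50 kb of one of the gene's annotated start sites. Joining peaks that shared at least 1 bp across libraries gave 107 such regions of 43654 in all. The individual lists held 81 of 30240 peaks and 88 of 33616 peaks at these genes after PBS, and 83 of 29269 and 88 of 33324 after SCF.

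ATAC-seq, in which the Tn5 transposase cuts open DNA, was run on HUDEP-2, an immortalised human erythroid line derived from cord blood. All cells used here carried the control guide RNA (sgControl) together with the dCas9-KRAB repressor of the CRISPR interference system, delivered by lentivirus. They were starved for 5 h in a serum-free medium supplemented with serum albumin and antibiotics, without added growth factors. They were then exposed for 1 h to stem cell factor (SCF), which activates Kit, at 50 ng/ml, or to buffered saline (PBS). Of 8 samples in 4 groups, the 2 PBS and 2 SCF libraries with sgControl were analysed, each made from 50000 cells, and those with sgEGR1 were not analysed here. HUDEP-2 is 1 line. The study's methods describe the 2 libraries of a condition as biological duplicates without saying how far apart they were grown, so a test measures only the spread between these libraries. The line is normally kept in SCF, erythropoietin, dexamethasone and doxycycline, so cells of both treatments had been deprived of factors they depend on.

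Depth differed between libraries. Taking PBS replicate 1 as 1, background pileups put the second PBS library at 1.42 and the SCF libraries at 0.883 and 0.843, so the SCF libraries were the shallower ones. Depth and treatment therefore cannot be fully told apart. Peaks were compared by percentile rank of fold enrichment within each library's own list, with 100 the highest. Fold enrichment is the summit pileup plus 1 over its local background plus 1. Where the local background is near 1, the added 1 weighs more, so ranks there are not free of depth. The part of depth in the ranks was not tested. The erythroid identity of the cells was checked at marker promoters. Of 12 erythroid markers, 11 had a promoter peak in all 4 libraries, and ALAS2, of heme synthesis, in 1. Among markers of other lineages, CD3E, CD79A, MPO, ALB, NEUROD1, SYT1 and KRT5 had none, whereas the CSF1R, CD14 and CDH1 promoters had one in all 4. A promoter peak by itself does not show expression. Names of single peaks hold replicate numbers too (2 and 3 for PBS, 1 and 2 for SCF). Those of the PBS lists differ from the labels, which were followed.

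The switch from fetal γ-globin to adult β-globin is held in place by repressors that act at the β-globin cluster and by factors that set the level of those repressors. ZBTB7A (also called LRF) binds the γ-globin promoters and silences them independently of BCL11A, and MBD2 joins methylated DNA to the NuRD corepressor complex. NFIA and NFIX are nuclear factor I proteins. LIN28B is a fetal RNA-binding protein that blocks let-7 microRNAs, and HIC2 is a fetal repressor of BCL11A. EIF2AK1 (HRI) is the heme-sensing kinase of eIF2α, whose signal raises translation of the transcription factor ATF4, and SPOP is a substrate adaptor of the CUL3 ubiquitin ligase.

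The sequences below carry the results that follow. Each is a stretch of 121 bases around the summit, read from the plus strand of GRCh37 (hg19), the build named in the lists. LIN28B +4.8 kb and the first pair of NFIA regions lost rank with SCF. NFIA +251.3 kb and NFIX +74.3 kb ranked higher in both SCF libraries than in both PBS libraries. ZBTB7A +8.5 kb holds an AP-1 word, and HIC2 −0.1 kb had the highest rank among the promoters of the 9 genes. Distances are from the most upstream start of the gene, positive along the gene. Capitals mark a GATA word (AGATAA or TGATAA), an NFI core word (TTGGCA) or an AP-1 word (TGANTCA) on either strand.
LIN28B +4.8 kb (chr6:105389222-105389342): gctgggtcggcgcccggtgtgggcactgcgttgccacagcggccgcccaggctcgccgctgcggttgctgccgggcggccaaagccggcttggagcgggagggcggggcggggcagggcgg
NFIA +339.5 kb (chr1:61670399-61670519): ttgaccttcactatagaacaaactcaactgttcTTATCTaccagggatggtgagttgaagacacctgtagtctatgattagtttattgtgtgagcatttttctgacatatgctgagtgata
NFIA +239.1 kb (chr1:61569952-61570072): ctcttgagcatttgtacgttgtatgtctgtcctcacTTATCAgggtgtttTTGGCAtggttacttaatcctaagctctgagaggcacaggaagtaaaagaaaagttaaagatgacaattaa
NFIA +251.3 kb (chr1:61582185-61582305): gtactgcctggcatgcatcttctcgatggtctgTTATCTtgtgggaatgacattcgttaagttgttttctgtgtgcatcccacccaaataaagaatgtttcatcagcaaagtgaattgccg
NFIX +74.3 kb (chr19:13180528-13180648): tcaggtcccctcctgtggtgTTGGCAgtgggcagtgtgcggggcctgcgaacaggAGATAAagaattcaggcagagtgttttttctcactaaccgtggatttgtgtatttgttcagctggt
ZBTB7A +8.5 kb (chr19:4058369-4058489): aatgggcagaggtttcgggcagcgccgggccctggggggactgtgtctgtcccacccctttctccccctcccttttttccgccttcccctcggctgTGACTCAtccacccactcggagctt
HIC2 −0.1 kb (chr22:21771515-21771635): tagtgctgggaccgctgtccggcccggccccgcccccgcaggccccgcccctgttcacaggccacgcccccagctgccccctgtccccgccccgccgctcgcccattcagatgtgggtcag

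Of the 107 regions, 64 (59.8%) were called in all 4 libraries, against 51.3% of all regions. The others were called in 3 (13 regions), 2 (11 regions) or 1 library (19 regions), and were mostly weak, with a median rank of 15.9. NFIA, the longest gene at 597.5 kb, held 34 regions (16 of them present in every list). NFIX held 27 (21 in all 4), EIF2AK1 11 (7), ATF4 10 (6), SPOP 8 (5), ZBTB7A 6 (4), MBD2 6 (2), HIC2 3 (2) and LIN28B 2 (1). By position, 21 regions overlapped or came within 1 kb of one of the gene's own starts. The others were 19 at the promoter of another protein-coding gene, 8 at that of a non-coding gene, 42 in introns, 8 in exons and 9 between genes. At the edge of the 50 kb limit, the last regions inside were those of NFIX at 48.3 and 49.6 kb from a start site, with mean ranks of 32.0 and 54.1. The first outside lay 50.6 kb from ZBTB7A and 55.6 kb from SPOP, each called in 1 library, with ranks of 14.1 and 7.92.

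As among all regions, few of these regions appeared or vanished with SCF. Of 107, 1 was SCF-only, that is, present in the 2 SCF lists and absent from the 2 PBS lists, against 1.65% of all regions. PBS-only regions numbered 0, against 2.37%. These counts are too small to set the 9 genes apart from all regions. Among the 64 regions called in all 4 libraries, 0 gained rank with SCF, a class that needed a gap of 10 points or more between the lower SCF and the higher PBS rank and that held 2.55% of all regions. Rank loss, the reverse, was seen at 6 of 64 (9.38%), against 3.04% of all regions. They were 3 regions of NFIA and 1 each of LIN28B, NFIX and SPOP. Without a minimum gap, 5 of 64 (7.81%) were higher in both SCF libraries, against 16.0%, and 14 (21.9%) were lower, against 19.3%. The share that was lower was thus close to that of all regions. The count of losses depended on the ranking value, since ranks of −log10 p or of summit pileup gave 2 of 64 (3.12%), against 2.17% and 1.5% of all regions. The map of ranks by distance from the gene start shows where these regions lie.

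**Figure D1:**
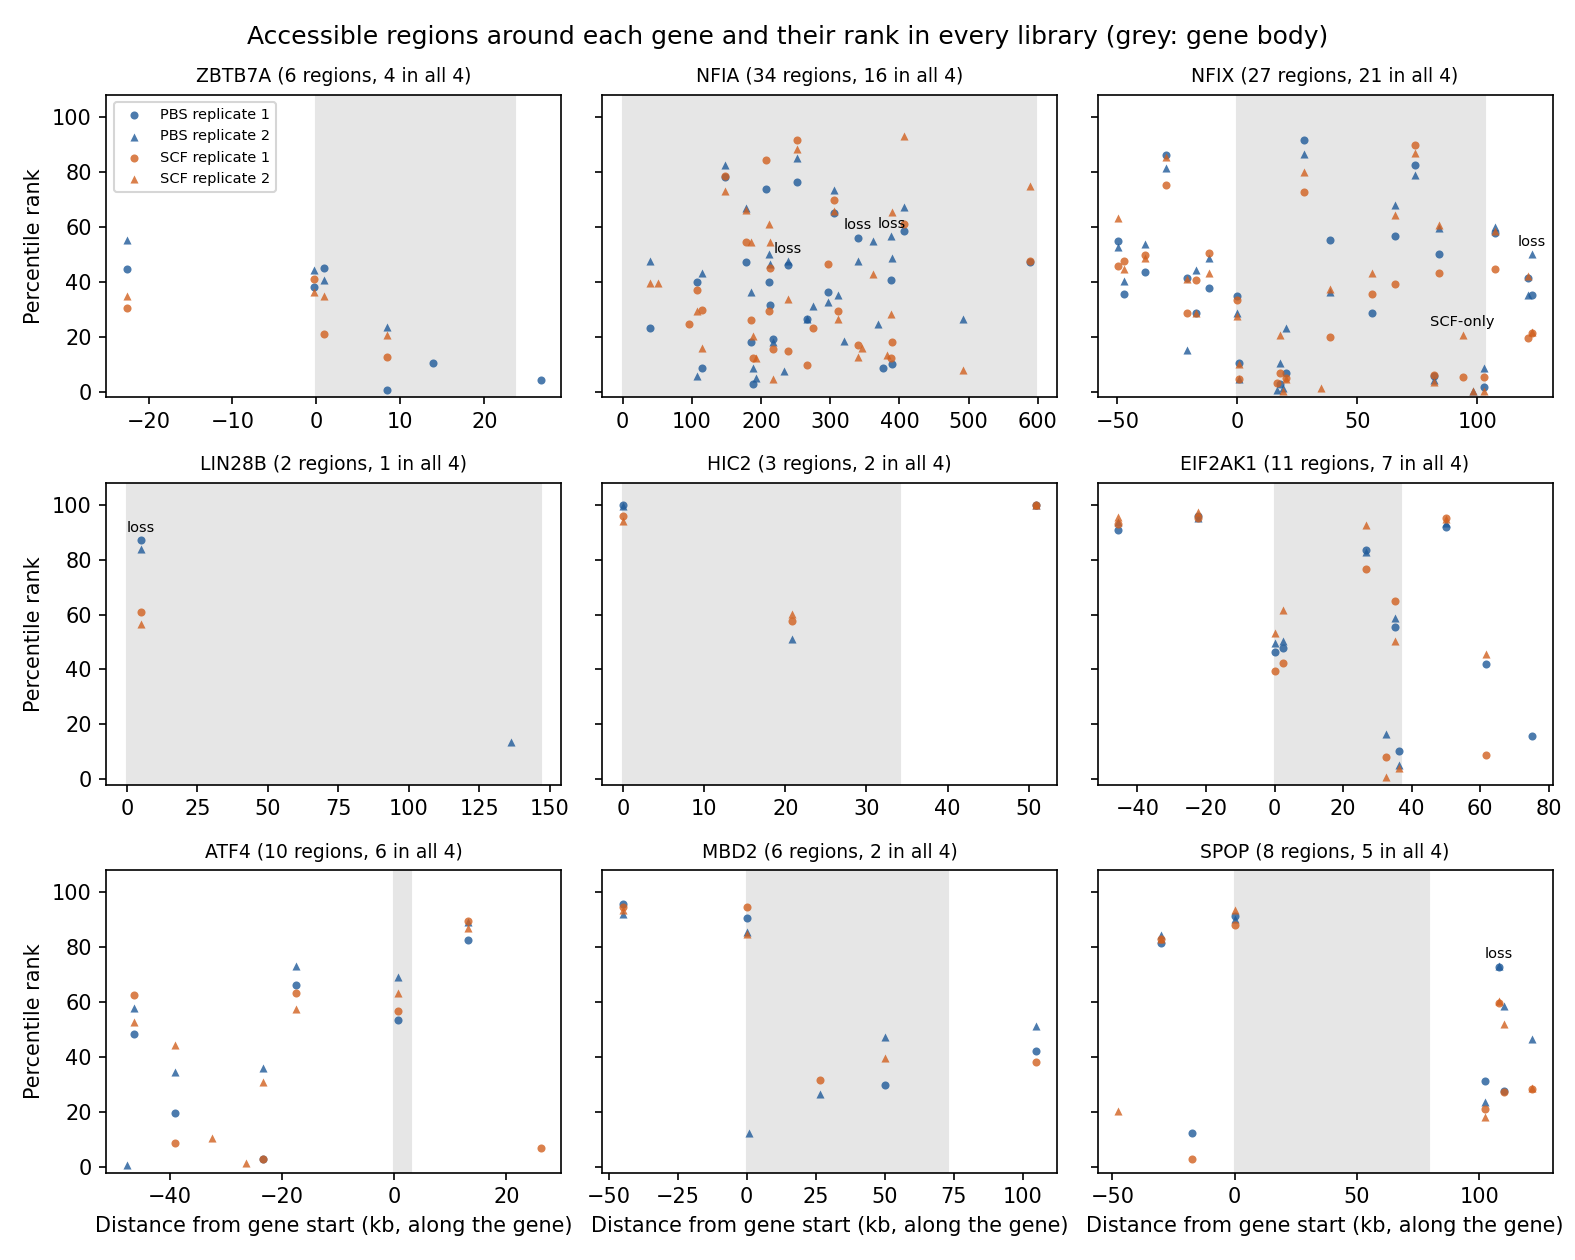
Percentile rank of fold enrichment (vertical axis, 100 the highest) of each region against its distance from the gene start in kb (horizontal axis), for the 9 genes. Circles and triangles are replicates 1 and 2, blue PBS and orange SCF, grey the gene body. "Loss" marks the 6 rank losses and "SCF-only" the 1 region called in the SCF libraries alone.

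Of the 6 losses, 2 were at start sites of the gene itself, at LIN28B and at NFIA. LIN28B +4.8 kb, a region of 823 bp, lies in the gene body, 0.54 kb past the middle one of 3 annotated LIN28B start sites. It also overlaps or comes within 1 kb of starts of the antisense gene LIN28B-AS1 and of ENSG00000290011. Its signal therefore cannot be assigned to 1 of the 3 genes. It was the only region of LIN28B called in all 4 libraries. Its ranks were 87.1 and 83.9 with PBS and 61.0 and 56.4 with SCF. Both SCF values were below both PBS values, with a gap of 22.98 points. The means were 85.5 ± 2.24 with PBS and 58.7 ± 3.19 with SCF (SD, n = 2), a difference of −26.8 points (two-sided exact permutation p = 0.333, the smallest that 2 libraries against 2 allow). The summit held 27 and 34 fragments with PBS and 19 and 16 with SCF. Divided by relative depth these were 27.0 and 23.9 against 21.5 and 19.0, a ratio of 0.796, where the median of all regions called in all 4 libraries was 1.12. Counting error alone was large, since 27 fragments had an exact 95% Poisson interval of 17.8 to 39.3 and 16 fragments one of 9.15 to 25.98. The other 2 LIN28B start sites, the most upstream and the most downstream, had no peak within 1 kb in any library. The other LIN28B region, an intronic one at +136.4 kb, was called in PBS replicate 2 alone with a rank of 13.6.

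NFIA held regions with lower and with higher ranks under SCF. NFIA +339.5 kb is a promoter region by the 1 kb rule, near the start of a short NFIA transcript and in an intron of the longer ones, and contains a GATA word. Its ranks were 56.0 and 47.5 with PBS and 16.9 and 12.7 with SCF, a difference of −36.9 points (exact permutation p = 0.333), the largest among the 64 regions. Its summit held only 15 and 15 fragments with PBS and 8 and 7 with SCF. Restricting the lists to a −log10 q of 5 or more made it PBS-only, and in lists of equal length it was not called in all 4. NFIA +388.2 kb, at the start of the antisense gene NFIA-AS1, had ranks of 40.6 and 56.5 with PBS and 12.3 and 28.4 with SCF. Its neighbour NFIA +389.4 kb, at the same promoter, had ranks of 10.2, 48.6, 18.2 and 65.4 in the same order, so that the replicates differed more than the treatments did.

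NFIA +239.1 kb, in an exon of NFIA and with both a GATA word and an NFI core word, had ranks of 46.1 and 47.5 with PBS and 14.8 and 33.8 with SCF. The summits held 14, 15, 8 and 11 fragments. Farther along, NFIA +251.3 kb ranked 76.3 and 85.1 with PBS and 91.5 and 88.5 with SCF. Both SCF values were above both PBS values, by at least 3.40 points, and the means were 80.7 ± 6.25 and 90.0 ± 2.13 (SD, n = 2, exact permutation p = 0.333). This exonic region was the highest-ranked of NFIA, and its summit held 37, 57, 47 and 49 fragments. The highest-ranked NFIA promoter region, at +211.9 kb, had ranks of 39.8 and 50.0 with PBS and 29.2 and 61.0 with SCF. There the groups overlapped, and the mean difference was 0.18 points. The most distal region of NFIA called in all 4 libraries, NFIA +406.1 kb, ranked 58.4, 67.3 and 61.1 in the first 3 libraries and 92.9 in SCF replicate 2, a value that SCF replicate 1 did not share. Its depth-scaled summits, fragments divided by relative depth, were 23 and 21.1 with PBS and 28.3 and 57.0 with SCF. Both SCF values were thus the higher, as at 38.1% of all regions, and the ratio of 1.93 was the highest of the 64 regions. NFIA +406.1 kb held both a GATA and an AP-1 word.

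SPOP +108.1 kb and NFIX +122.8 kb are within the distance limit but lie in or at other genes. SPOP +108.1 kb, in an intron of NGFR-AS1 and downstream of SPOP, had the tightest replicates of the 6, with ranks of 72.7 and 73.2 under PBS and 59.6 and 60.4 under SCF. The difference was −12.98 points, with SDs of 0.346 and 0.578 (n = 2, exact permutation p = 0.333). Its summit held 59 and 68 fragments with PBS and 42 and 44 with SCF. NFIX +122.8 kb is at the NACC1 and TRMT1 promoters and ranked 35.1 and 50.1 with PBS and 21.4 and 21.6 with SCF. A second region at the same promoters, NFIX +121.3 kb, overlapped between treatments (41.4, 35.4, 19.5 and 42.3).

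**Figure D2:**
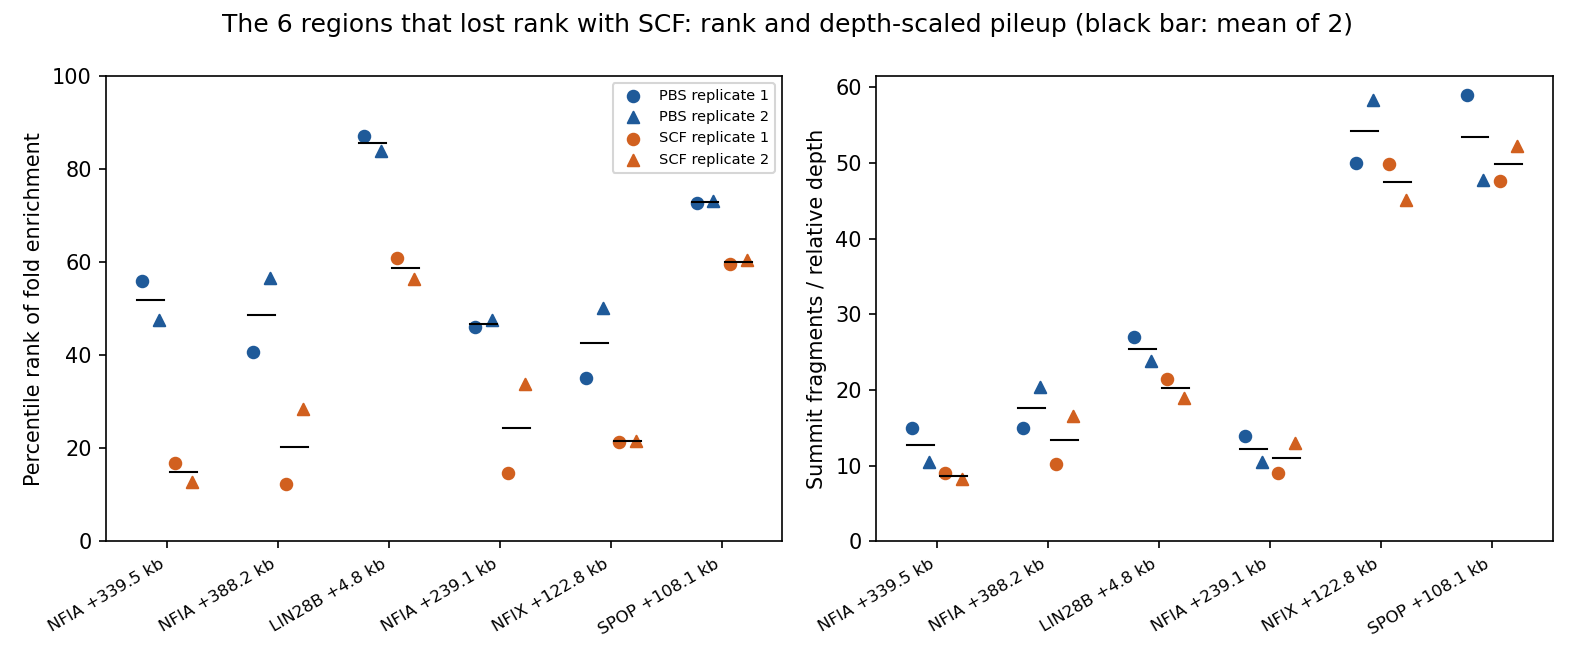
The 6 regions that lost rank with SCF, ordered by the size of the loss (horizontal axis). The left panel gives the percentile rank of fold enrichment, the right panel the number of fragments at the summit divided by relative depth (PBS replicate 1 set to 1), blue PBS and orange SCF, circles replicate 1, triangles replicate 2, black bars the mean of 2. In the right panel the treatments overlap for NFIA +388.2 kb, NFIA +239.1 kb and SPOP +108.1 kb.

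Both SCF values lay below both PBS values at fewer regions by depth-scaled pileup (8 of 64) than by rank without a minimum gap (14 of 64). Set against all regions, the lower class was not weaker on the depth scale. The 8 of 64 stood further above their share of 6.13% than the 14 of 64 (21.9%) above 19.3%. Whether either excess went beyond counting error was not tested. The SCF to PBS ratio was below 1 at all 6 rank losses and at 20 of the 64 regions, against 24.3% of all regions called in all 4 libraries. The median ratio was 1.10 at the 9 genes and 1.12 over all regions, so most pileups were higher with SCF once depth was taken into account. Scaled pileups of both SCF libraries lay above both PBS values at 23 of 64 regions, against 38.1% of all, and below both at 8 of 64, against 6.13%. Among the 6 rank losses, those of LIN28B +4.8 kb, NFIA +339.5 kb and NFIX +122.8 kb were in this last group, the NFIX one by a margin of 50.0 against 49.8. The scaling rests on a depth inferred from the lists, and its part in these values was not tested.

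Over the 64 regions as a whole, libraries of different treatments were about as far apart as replicates. The median absolute rank difference between a PBS and an SCF library was 6.79 to 8.58 points over the 4 such pairs, beside 6.83 between the PBS replicates and 7.63 between the SCF replicates. The median SCF minus PBS difference was −0.43 points, against −0.53 over all regions, and the mean was −2.59, against −0.66. It was below 0 in 34 and above 0 in 30 regions. At the 9 genes the lower tail of the differences was longer than the upper one, with no member above 15 points. Differences over all regions reached farther on both sides, with 3.15% of regions between 15 and 20 points.

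**Figure D3:**
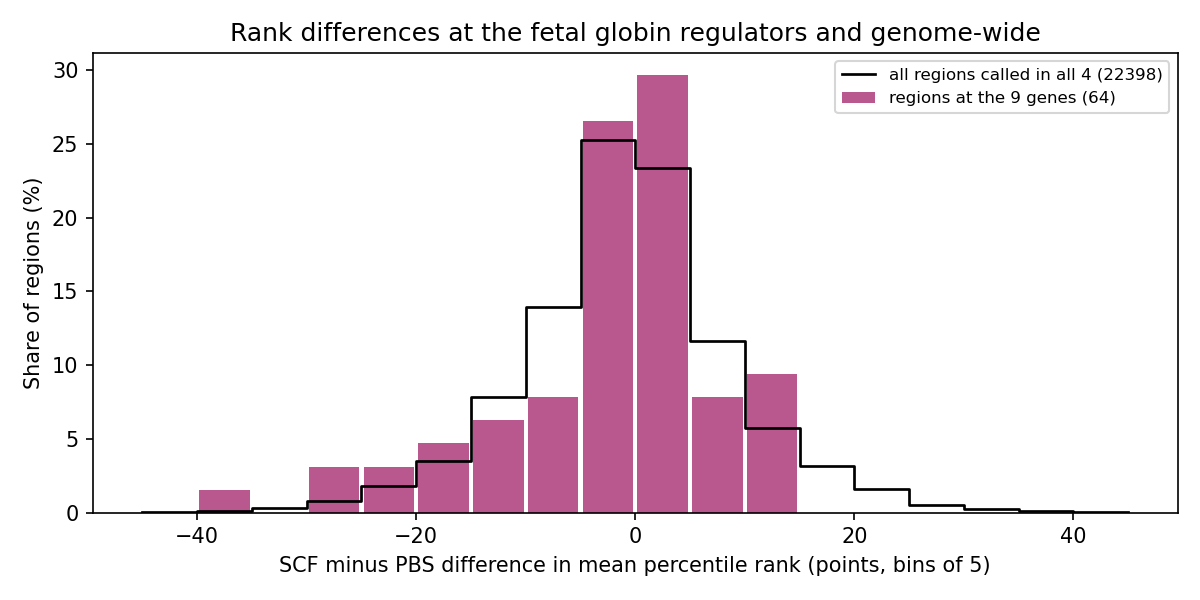
Share of regions in percent (vertical axis) by SCF minus PBS difference in mean percentile rank (horizontal axis, bins of 5 points), for the 64 regions at the 9 genes (bars) and all 22398 regions called in all 4 libraries (line). The bars reach below −35 points on the left but end at 15 points on the right.

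The 9 main promoters, each the highest-ranked promoter region of its gene, were called in every library. In order of mean rank over the 4 libraries, they were HIC2 (97.3), SPOP (90.9), MBD2 (88.9), NFIX (84.5), LIN28B (72.1), ATF4 (60.7), EIF2AK1 (47.2), NFIA (45.0) and ZBTB7A (39.9). The ranges over libraries overlapped between neighbours in this order, except for HIC2 and SPOP (94.0 against 93.6) and ATF4 and EIF2AK1 (53.48 against 53.45). At HIC2 −0.1 kb the ranks were 99.7 and 99.7 with PBS and 95.9 and 94.0 with SCF. Both SCF values were lower, by at least 3.80 points, and the means were 99.7 ± 0.034 and 94.9 ± 1.33 (SD, n = 2, exact permutation p = 0.333). The summit held 43 and 50 fragments with PBS and 30 and 26 with SCF, and the region spans only 250 bp. SPOP +0.1 kb had ranks of 91.5, 90.3, 88.1 and 93.6 and a mean difference of −0.015 points. MBD2, at its most upstream start, had ranks of 90.6, 85.5, 94.7 and 84.9. In both genes the treatments overlapped.

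**Figure D4:**
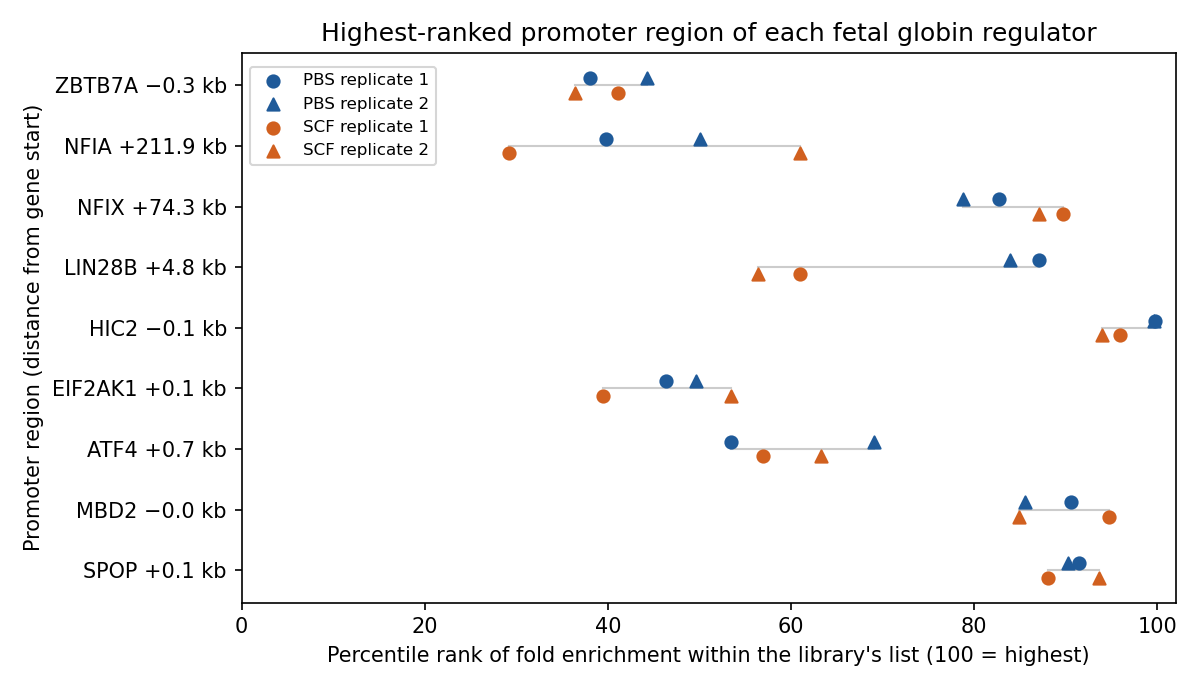
Percentile rank of fold enrichment (horizontal axis) of the highest-ranked promoter region of each gene (vertical axis), in the 4 libraries. Blue is PBS and orange SCF, circles replicate 1 and triangles replicate 2. The treatments are apart at LIN28B and HIC2, where SCF is lower, and at NFIX, where it is higher, and overlap at the other 6. Regions were chosen by mean rank over all 4 libraries, SCF included.

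NFIX +74.3 kb, at the start of an internal NFIX transcript and of ENSG00000267610, was the main promoter with a higher rank under SCF. It ranked 82.7 and 78.8 with PBS and 89.6 and 87.0 with SCF, a mean difference of 7.61 points (exact permutation p = 0.333). The summit held 112 and 133 fragments with PBS and 144 and 120 with SCF. Another NFIX promoter, NFIX +27.7 kb, did the opposite, with ranks of 91.8 and 86.6 with PBS and 72.7 and 79.9 with SCF and pileups of 96, 119, 57 and 66 fragments. Main promoters were chosen by mean rank over all 4 libraries, 84.5 at NFIX +74.3 kb and 82.7 at NFIX +27.7 kb. In both PBS libraries NFIX +27.7 kb ranked higher, so the choice of region, and with it the direction shown for NFIX, depended on the SCF values. At the most upstream NFIX start, the ranks were low, 34.7 and 28.7 with PBS and 33.4 and 27.4 with SCF, and the treatments overlapped. Start sites of 1 gene thus differed in rank and in direction.

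The stress kinase EIF2AK1 and its effector ATF4 had middle ranks that did not separate the treatments. EIF2AK1 +0.1 kb ranked 46.3 and 49.6 with PBS and 39.5 and 53.5 with SCF. ATF4 +0.7 kb ranked 53.5 and 69.1 with PBS and 56.9 and 63.3 with SCF. The SD between the PBS replicates of ATF4, 11.0 points, exceeded the mean difference of −1.19 points. Of the regions around these genes, 0 were in a class of change, although ATF4 −17.4 kb, at the promoter of MIEF1, was lower in both SCF libraries (66.2 and 73.3 against 63.5 and 57.4). By depth-scaled pileup that region was instead higher in both, with 48.0 and 45.7 for PBS and 53.2 and 48.7 for SCF. EIF2AK1 +50.0 kb, at promoters of other genes, was higher in both SCF libraries by rank (91.8 and 93.3 against 95.2 and 94.8) and overlapped by depth-scaled pileup.

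ZBTB7A combined tall peaks with middle ranks. ZBTB7A −0.3 kb held 166 and 241 fragments with PBS and 167 and 118 with SCF, which put its pileup between the 95.6 and 98.1 percentiles of each list. Its fold enrichment ranked 38.0, 44.2, 41.1 and 36.5, over a local background of 20.3 to 38.9 fragments. The median background over all regions called in all 4 libraries was 2.94 to 4.46. The neighbouring ZBTB7A +0.9 kb, also at a start site of the gene, ranked 45.0 and 40.7 with PBS and 21.0 and 34.7 with SCF, without overlap. ZBTB7A −22.6 kb, upstream and between genes, ranked 44.6 and 55.2 with PBS and 30.6 and 34.8 with SCF, a mean difference of −17.2 points (exact permutation p = 0.333) whose gap of 9.80 points fell just short of a rank loss. In lists restricted to a −log10 q of 5 or more, both ZBTB7A +0.9 kb and ZBTB7A −22.6 kb were rank losses.

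The intronic region ZBTB7A +8.5 kb, with an AP-1 word in capitals above, was among the weakest by rank, at 0.62 and 23.6 with PBS and 12.6 and 20.5 with SCF. The treatments overlapped. Its pileups of 16 and 38 fragments with PBS and 29 and 29 with SCF became 16.0, 26.7, 32.8 and 34.4 when divided by relative depth, so both SCF values were then above both PBS values, at a ratio of 1.57. The exact 95% Poisson intervals of 38 (26.9 to 52.2) and 29 fragments (19.4 to 41.6) overlapped. This order on the depth scale was common, being found at 38.1% of all regions called in all 4 libraries, whose median ratio was 1.12.

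The contrast between height and enrichment held more widely. Regions at the 9 genes had median pileups of 40, 57, 39 and 42.5 fragments in the 4 libraries, above the 35, 47, 33 and 33 of all regions called in all 4. Their local background was also higher, at 5.02, 7.51, 4.62 and 5.09 against 3.09, 4.46, 2.94 and 2.94, and their median rank was 46.1 against 63.3. HIC2 stood at the other end, since its 26 to 50 fragments rose over a background of 0.885 to 1.5. LIN28B +4.8 kb, with a background of 1.16 to 1.94, was similar. The lowest-ranked region called in all 4 libraries, NFIX +102.7 kb, in an exon, held 60 to 136 fragments but ranked 1.80, 8.75, 5.33 and 0.19.

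**Figure D5:**
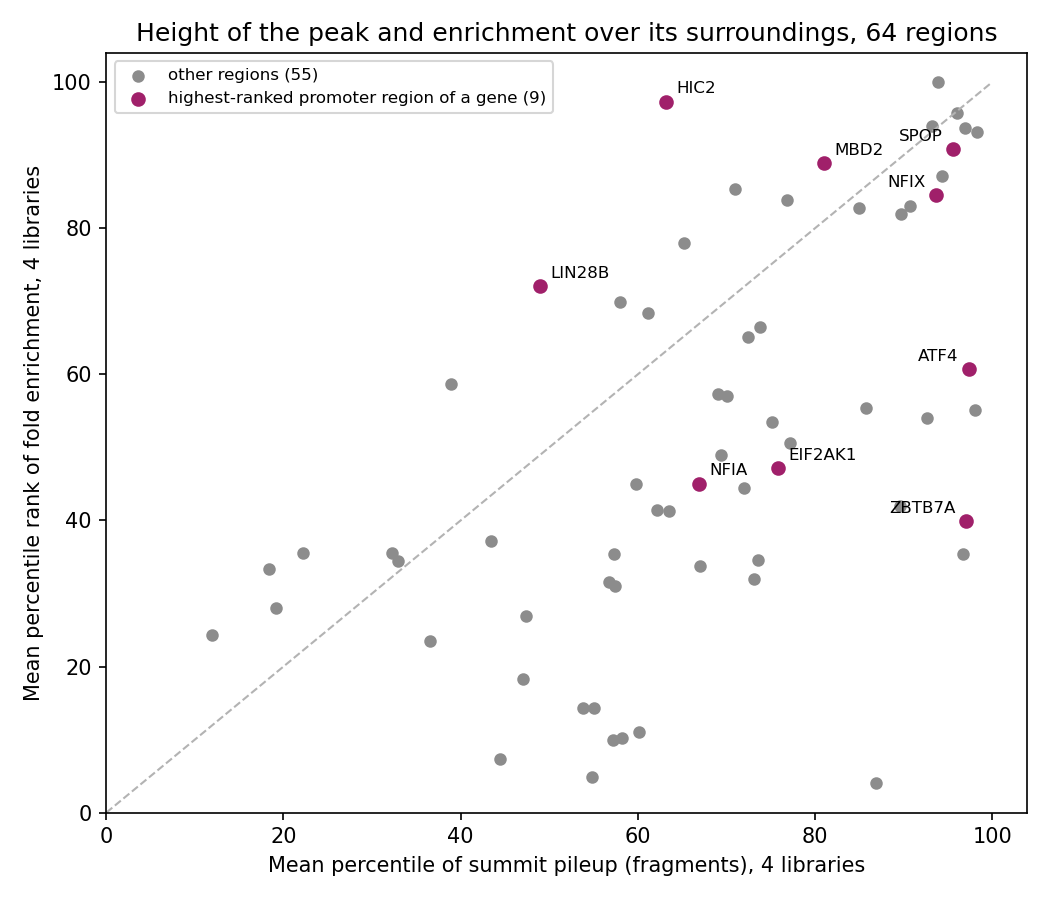
Mean percentile rank of fold enrichment (vertical axis) against mean percentile of the summit pileup (horizontal axis) over 4 libraries for the 64 regions called in all of them. Main promoters of the 9 genes are purple and named, the other 55 regions grey, and the dashed line marks equal percentiles. ZBTB7A lies far to the right at a middle rank, HIC2 and LIN28B above the line.

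The only SCF-only region was NFIX +94.0 kb, in an intron. It spans 287 bp and was called with 15 and 22 fragments in the SCF libraries, at ranks of 5.31 and 20.8. In lists restricted to a −log10 q of 5 or more, 0 regions of the set were SCF-only. None of the words searched lay within 100 bp of its summit.

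Promoters of other genes in the windows included several with the top ranks of the set. The TMEM191C promoter, at HIC2 +50.9 kb, ranked 100 in each library, rounded to a whole number. The POLI promoter upstream of MBD2 ranked 92.0 to 95.7, the USP42 promoter upstream of EIF2AK1 90.8 to 95.5, and EIF2AK1 −22.4 kb, at a non-coding gene, 95.03 to 97.2. The treatments overlapped at these 4, unlike at EIF2AK1 +50.0 kb, which had a mean rank of 93.8. Downstream of NFIX, the promoter of LYL1, a hematopoietic helix-loop-helix factor, ranked 57.6 and 59.97 with PBS and 44.7 and 58.5 with SCF.

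Sequence words were counted within 100 bp on each side of the highest-ranked summit, on both strands. The words were TGANTCA for AP-1, GCGTGGG for EGR, AGATAA or TGATAA for GATA, TGACGTCA for the cAMP response element, CCGGAAG for ETS, CCACACCC for KLF, TTGGCA for the NFI core word and AGGGGGCGC for CTCF. Of the 59 regions away from promoters, 15 (25.4%) held a GATA word, against 36.7% of all such regions, 13 (22.0%) an NFI core word, against 13.4%, and 5 (8.47%) an AP-1 word, against 11.5%. Of the 48 promoter regions, 7 (14.6%) held a GATA word against 10.4%, and 0 an AP-1 word against 4.28%. The EGR word was present at 1 promoter region and 1 other. Neither was in a class of change. Such short words recur by base composition alone, a match is not a bound site, and 107 of 107 windows had 1 exact copy of their central 75 bases in the genome.

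Of the 6 rank losses, NFIA +339.5 kb and NFIA +239.1 kb held a GATA word and none held an AP-1 or EGR word. The AP-1 word was at 3 regions called in all 4 libraries (NFIA +406.1 kb, ZBTB7A +8.5 kb and NFIX −17.3 kb), and at each the treatments overlapped in rank. By depth-scaled pileup, the first pair were higher in both SCF libraries, at ratios of 1.93 and 1.57, and NFIX −17.3 kb overlapped, at 1.11. On that scale 38.1% of all regions called in all 4 libraries were higher in both, and their median ratio was 1.12. The 1.93 at NFIA +406.1 kb came mainly from SCF replicate 2 (57.0, against 28.3 in SCF replicate 1). A GATA word also lay at NFIA +251.3 kb, NFIA +188.6 kb and NFIX +74.3 kb, which were 3 of the 5 regions higher in both SCF libraries. That class, without a minimum gap, held 7.81% of the 64 regions, against 16.0% of all regions. Among the 14 regions lower in both SCF libraries, also without a minimum gap, NFIA +339.5 kb and NFIA +239.1 kb alone held a GATA word. The share with a GATA word was not computed for the higher or lower regions among all regions, so these counts have no background. Whether the word went with direction was not tested.

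Among other genes of the same pathways, 1 promoter region was in a class of change. A list of 52 genes covered NuRD and other corepressors (24 genes), DNA-binding factors (14), eIF2α kinases and phosphatase subunits (6), the LIN28B axis (5) and SPOP partners (3). Of these, 48 had a promoter region called in all 4 libraries, 65 regions in all. There were 0 rank gains and 1 rank loss, at EIF2AK2, the RNA-sensing eIF2α kinase, beside 1.27% and 2.31% of all promoter regions called in all 4 libraries. Without a minimum gap, 8 were higher and 13 lower, beside 14.4% and 20.8%.

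For each main promoter, the promoter elsewhere with the most similar ranks was sought among 12197 protein-coding genes. The mean absolute difference over the 4 libraries was 0.13 points for HIC2 and KANSL1, 0.44 for SPOP and BOD1, 0.71 for NFIX and PLK4 and 0.98 for MBD2 and NXF1. It was 1.18 for ATF4 and OTUB1, 1.21 for ZBTB7A and PRPF4B, 1.22 for EIF2AK1 and VOPP1 and 1.65 for NFIA and ITGA1. LIN28B had the least similar match, ZC3H12B, at 2.54 points, and 0 promoters within 2 points, whereas HIC2 had 180 and SPOP 193.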

How the data were processed

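ATAC-seq libraries were sequenced by the authors, processed with the ENCODE pipeline (bcl2fastq, Bowtie2 and SAMtools are named in the submitters' notes) and deposited as 1 peak list per library, not pooled. The methods and notes name hg38, whereas the deposited lists name hg19 in their first line. Coordinates were read as hg19, and no peak exceeded the 24 GRCh37 chromosomes. The deposited values are fold enrichment and the −log10 of the p-value and q-value, with a q threshold of 0.05. Fold enrichment was read as summit pileup plus 1 over local background plus 1. Peak caller and read totals are not given in the sources used here.

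Members, rule and gene lists were chosen with earlier results of these data known. Gene models were those of GENCODE release 44, in GRCh37 coordinates. Peaks sharing at least 1 bp were merged with Python 3.11.15 and pandas 2.3.3. Percentile ranks, classes and exact permutation tests (scipy 1.17.1) were computed as described. Whole-number pileups and backgrounds were recovered from fold enrichment and −log10 p, within a relative error of 0.0001 in 100% of peaks under a −log10 p of 300. Depth was the lowest background divided by the shortest peak width. Intervals cover counting error only. Scripts were tested on simulated data. Described in full were each gene's highest-ranked promoter region and highest-ranked region beyond 1 kb of its start sites, and every region in a class. Other regions were chosen after their values were seen. One lineage marker of the list is not reported here.

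Alternatives were an equal number of peaks (29269) per library, a −log10 q of at least 5, coverage of 50% of a region, other ranking values, gaps of 5 and 20 points, narrower windows, leaving out each library, and a replicate block.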

Additional observations from a re-analysis of the deposited data

How the results depend on the processing

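The rank loss at LIN28B +4.8 kb held under every alternative run with the 4 libraries, but the set of 6 did not. With a −log10 q of at least 5, 3 of the 6 stayed and 3 other regions were losses. With an equal number of peaks 4 stayed and 1 other was a loss, and with coverage of 50% of a region 4 stayed. Leaving out a library tests no loss, since the gap that defines one can then only stay or widen. The number of losses was 2 when ranked by −log10 p, 2 when ranked by pileup and 2 with a gap of 20 points, each time LIN28B +4.8 kb and NFIA +339.5 kb. With the gap of 20 points this was 3.12% of the member regions, against 0.545% of all regions. Regions higher in SCF numbered 3 when ranked by −log10 p, 3 within 15 kb and 3 in gene bodies, and regions lower 9 within 15 kb and 8 in gene bodies, where fewer regions count. With a −log10 q of at least 5 there were 0 SCF-only and 2 PBS-only regions. With a library left out the conditions are looser, and counts ranged from 3 to 8 for SCF-only, 3 to 6 for PBS-only, 1 to 8 for gains, 7 to 16 for losses, 11 to 27 for higher and 22 to 33 for lower. Among the alternatives, shares over all regions were computed only for gains and losses with 4 libraries, so the other counts have no background to be read against. The mean rank difference went from −5.67 (SCF replicate 2 left out) to 0.55 (SCF replicate 1 left out), a sign that rests on single libraries, as the pooled SD between replicates was 4.03 points.

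Labels share replicate numbers, but nothing says that they mark a common culture, and peak names carry other numbers. With 2 pairs, a replicate block gave 7 losses (10.9%), which by the rule include the 6, against 5.43% of all regions, and 0 gains, against 4.43%. It also gave 18 regions lower and 11 higher in both pairs, for which no share over all regions was computed, and the same mean difference of −2.59. The paired exact p of LIN28B +4.8 kb was 0.5, the smallest possible. Direction reversed for ATF4 −39.0 kb (1.79 with an equal number of peaks, 3.20 by pileup), SPOP +0.1 kb (0.41 with an equal number of peaks) and NFIA +211.9 kb (−2.22 by −log10 p, −1.78 by pileup). With 1 library left out, the rank difference changed sign at 9 regions whose treatments overlapped, ranging from −15.7 to 16.0 at NFIA +211.9 kb, −26.8 to 2.09 at NFIX +65.9 kb, −18.5 to 17.4 at ATF4 −39.0 kb, −8.98 to 6.60 at ATF4 +0.7 kb, −8.48 to 5.52 at EIF2AK1 +0.1 kb, −6.70 to 8.01 at EIF2AK1 +35.0 kb, −5.49 to 0.73 at ZBTB7A −0.3 kb, −3.14 to 6.68 at the upstream MBD2 start and −2.79 to 2.76 at SPOP +0.1 kb. The number of peaks at the 9 genes differed by 1.0 between treatments, 0.0 with an equal number of peaks and 0.5 within 15 kb. Depth is a limit too, with 7 to 34 fragments behind 4 of the 6 losses.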

Other observations

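Of the 96 annotated start sites of the 9 genes, 31 had no peak within 1 kb in any library. They were 9 of 28 at NFIA, 9 of 23 at SPOP, 4 of 8 at EIF2AK1, 3 of 15 at NFIX, 2 of 5 at MBD2, and 2 of 3 at each of LIN28B and HIC2. All start sites of ZBTB7A (2) and ATF4 (9) had one. Between the top HIC2 promoter and the next gene, an intronic HIC2 region at +20.8 kb with a GATA word was called in 3 libraries, with ranks of 51.3 in PBS replicate 2 and 57.6 and 60.1 in the SCF libraries. It was not called in PBS replicate 1.

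NFIA +206.6 kb was called in both replicate 1 libraries alone, at ranks of 73.96 with PBS and 84.3 with SCF, high values for a region missing from 2 lists. The median rank of regions called in fewer than 4 libraries was 15.9.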
